A study of Mus musculus with 10 samples.

Results

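Long RNA was compared between the hearts of newborn C57BL/6 mice and those of embryos at embryonic day 17.5 (E17.5), the stages on either side of birth. The comparison takes in every locus of the long RNA table that lies outside chromosomes X and Y and reached at least 1 FPKM (fragments per kilobase of RNA, scaled to the size of the library) in either library. These were 13084 of 35299 loci. The series covered 5 stages, E10.5, E14.5, E17.5, newborn and adult, with 5 long RNA and 5 small RNA libraries. All animals were of strain C57BL/6, and the labels give no treatment, no allele and no number of hearts per library. Cardiomyocyte is the labelled cell type, but the labelled source is heart tissue. The values are taken as those of whole tissue, in which fewer cells of a type and less RNA per cell cannot be told apart. Each stage had 1 long RNA library. There is therefore no spread between animals and no test, and "higher" and "lower" describe these libraries.

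At birth the lungs take over gas exchange, the shunts that bypass them close and the left ventricle comes under a higher load. The heart muscle, which in the fetus draws its energy largely from glucose and lactate at low oxygen, turns towards the oxidation of fatty acids. Its mitochondria grow in number and density through the weeks after birth, its cells leave the cell cycle, and several contractile proteins switch from fetal to adult forms.

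The table names loci by assembly numbers and by UCSC transcript identifiers, with positions on the mouse build mm9. None of its 49285 transcript identifiers was found in the name tables used here (0 matched), so loci are given by position, without gene names, and the cardiac or other markers that would check the labelled cell type were not analysed here. Positions are printed as deposited, and the base from which starts are counted (0 or 1) was not given in the sources used here.

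Most loci had nearly the same level on both sides of birth. Differences are given as newborn minus E17.5 on the scale of log2(FPKM + 1), on which a low locus shows less than its true change. The median difference was -0.03, the quartiles were -0.26 and 0.20, and 79.2% of loci (10359) lay within 0.5 of no difference. A locus was called higher or lower where it differed by at least 1, which is 2-fold, a rule of size. By this rule 364 loci were higher in the newborn (2.78% of those compared) and 350 were lower (2.68%), 5.46% in all. At the larger end, 36 loci were at least 4-fold higher and 56 at least 4-fold lower. Of the compared loci 744 reached 1 FPKM in the newborn alone, 565 at E17.5 alone and 11775 in both.

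**Figure D1:**
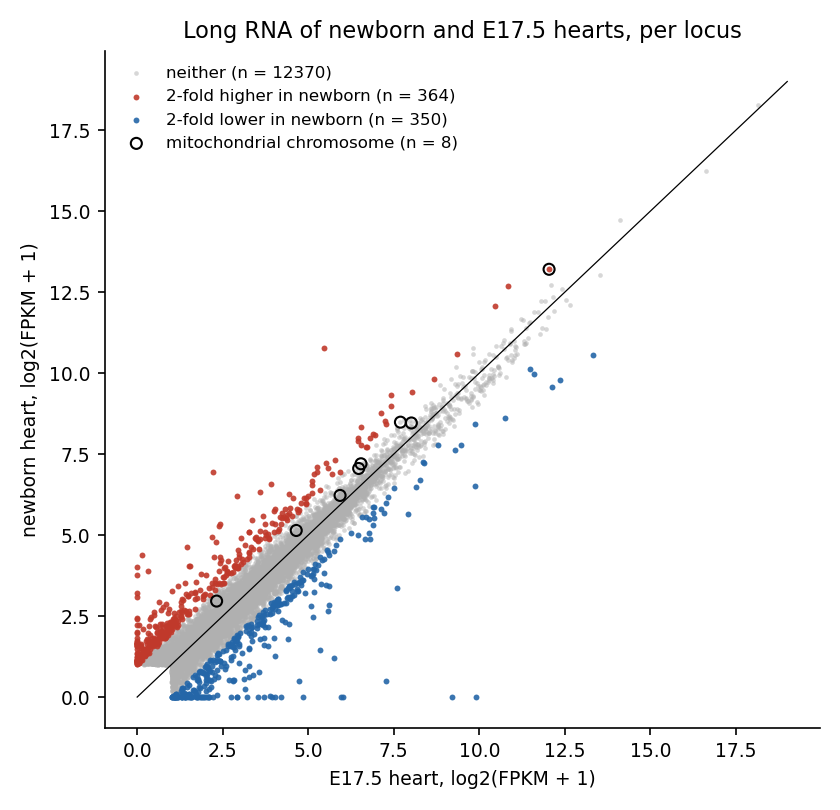
Level of each compared locus in the newborn heart (vertical axis) against the E17.5 heart (horizontal axis), both as log2(FPKM + 1), with 1 library per stage. The 364 loci called higher (red) and 350 called lower (blue) flank the 12370 others (grey), the line marks equal levels, and all 8 mitochondrial loci (open circles) lie above it.

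The limits of the comparison ran through a continuous range of values. The locus just inside the filter, at chr10:69708023-69748699, had 1.00 FPKM in the newborn and 0.513 at E17.5, and the one just outside, at chr18:70138784-70301244, had 0.917 and 0.999 FPKM in the same order. The called locus nearest the higher limit, at chr15:82086551-82091176, had 1.09 FPKM in the newborn and 0.0437 at E17.5. The locus just short of that limit, at chr10:30322821-30338617, had 52.0 and 25.5 FPKM. On the other side the called locus nearest the limit, at chr9:106342389-106367248, had 13.4 FPKM in the newborn and 27.8 at E17.5, and the one just short of it, at chr2:70956110-70979579, had 0.578 and 2.15 FPKM.

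The share of loci past 2-fold differed between levels. Among the 645 loci whose mean over both stages was under 1 FPKM, 8.68% were higher in the newborn and 7.75% lower. Their quartiles lay 1.18 apart on the log2(FPKM + 1) scale. The filter admits such a locus only where 1 stage reached 1 FPKM and the other did not. Part of these shares and of this spread is therefore set by the filter. Between 1 and 3 FPKM, where the filter leaves out no locus, 4.72% of 2520 loci were higher and 3.41% lower. Among the 3670 loci between 10 and 30 FPKM, 1.58% were higher and 2.13% lower, with quartiles 0.38 apart. At 1000 FPKM or more, 4 of 94 loci were higher and 6 lower (4.26% and 6.38%), and the median difference was -0.29. Called loci thus made up a larger share between 1 and 3 FPKM and at 1000 FPKM or more than between 10 and 30 FPKM.

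**Figure D2:**
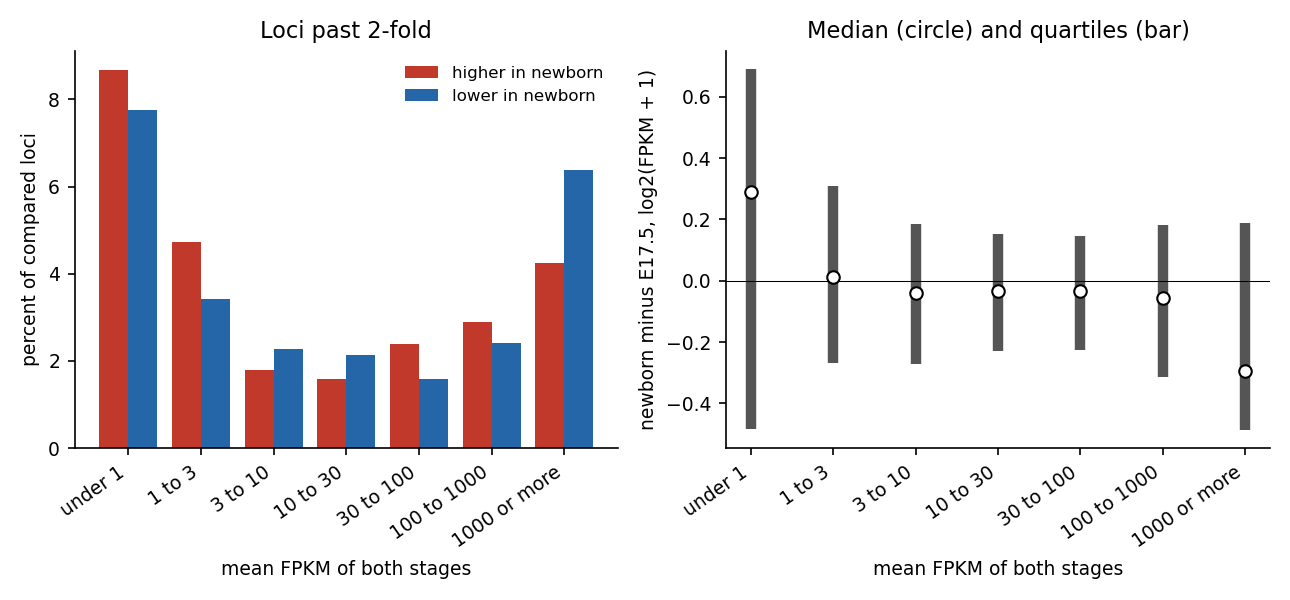
Loci grouped by their mean FPKM over the newborn and E17.5 libraries. The left panel gives the percent of compared loci that were at least 2-fold higher (red) or lower (blue) in the newborn, and the right panel gives the median (circle) and quartiles (bar) of newborn minus E17.5 on the log2(FPKM + 1) scale. The quartiles are closest together between 10 and 100 FPKM. The class under 1 FPKM holds only loci with 1 stage at 1 FPKM or more and the other below it.

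Among loci without a transcript identifier, which the authors' assembly lists without a known transcript, more were called higher than lower at the settings used here. Of 681 such loci 72 were higher (10.6%) and 24 lower (3.52%), with a median difference of 0.28, against 292 (2.35%) and 326 (2.63%) of the 12403 loci with an identifier, whose median was -0.04. With a pseudocount of 5 the loci without an identifier called higher and lower were 5 and 6, and with a filter of 10 FPKM they were 6 and 7, so the surplus was not seen at these settings. Between 1 and 3 FPKM, 38 of 334 loci without an identifier were higher and 8 lower, against 81 and 78 of 2186 with one. Between 3 and 10 FPKM, however, 6 of 102 were higher and 6 lower. Intervals under 500 bases, of which 89 were compared, had 20 higher (22.5%) and 13 lower (14.6%), the largest shares of any width class. At 100000 bases or more, 80 of 3018 were higher (2.65%) and 43 lower (1.42%). On chromosomes 1 to 19 between 1.98% and 3.76% of loci were higher and between 1.87% and 3.89% lower.

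The mitochondrial chromosome carries genes for subunits of the respiratory chain and for mitochondrial ribosomal RNA, and its loci all differed in 1 direction. All 8 compared loci had a higher value in the newborn than at E17.5, by 1.23-fold to 2.24-fold, with a median of 0.61 on the log2(FPKM + 1) scale. Only 1 of the 8 passed the 2-fold limit. The strongest locus, at chrM:5326-6938, had 9436 FPKM in the newborn and 4207 at E17.5. The locus at chrM:1148-3703 had 357 FPKM in the newborn and 206 at E17.5, and the one at chrM:12405-15288 had 351 and 257 FPKM. Among the weaker loci, chrM:69-852 had 73.7 FPKM in the newborn and 60.0 at E17.5, and chrM:3848-4933 had 132 and 87.9 FPKM. The locus at chrM:9875-11542 had 146 FPKM in the newborn and 92.2 at E17.5.

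The 2 weakest mitochondrial loci showed the same order. At chrM:7009-7699 the values were 34.3 FPKM in the newborn and 24.1 at E17.5, and at chrM:7765-8607 they were 6.80 and 4.00 FPKM. Summed, the 8 loci made up 1.08% of all FPKM in the newborn library and 0.490% of the E17.5 library. Most of both sums came from chrM:5326-6938 alone, with 9436 of 10538 FPKM in the newborn and 4207 of 4938 FPKM at E17.5. The change in share thus mainly describes that locus. The step was part of a longer course from E14.5 on. All 8 loci were also lower at E14.5 than at E17.5 and higher in the adult than in the newborn. The locus at chrM:5326-6938 went through 2799, 2808, 4207, 9436 and 30097 FPKM across the stages E10.5, E14.5, E17.5, newborn and adult. Between E10.5 and E14.5 the direction was mixed. There chrM:69-852 fell from 38.4 to 25.9 FPKM, while chrM:12405-15288 rose from 145 to 152 FPKM.

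**Figure D3:**
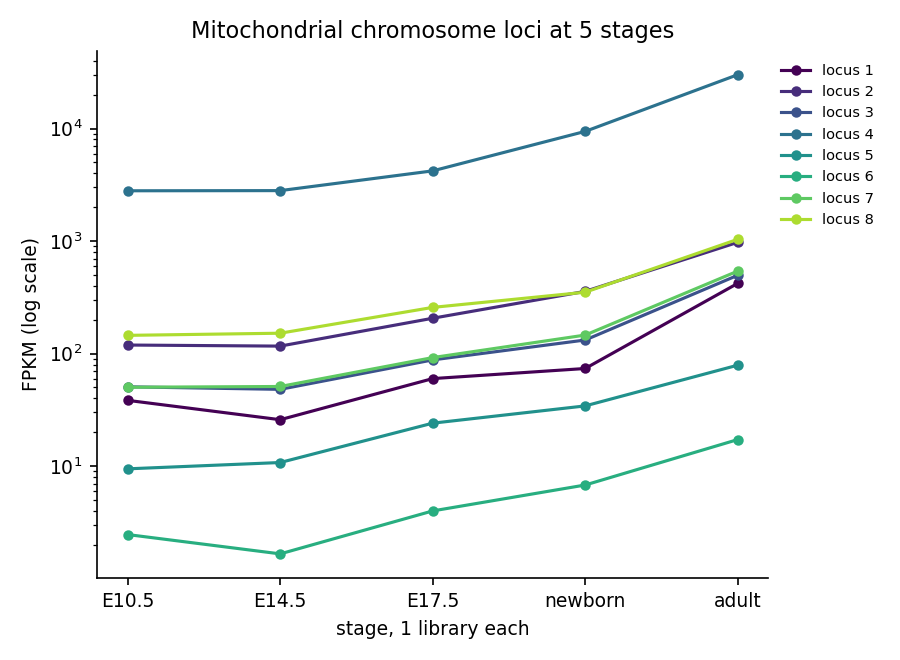
FPKM (log axis) of the 8 loci of the mitochondrial chromosome at 5 stages, with 1 library per stage and loci numbered in order of position. All 8 lines are higher in the newborn than at E17.5 and higher again in the adult.

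Of the 5 most abundant loci outside the mitochondrial chromosome, 4 differed by less than 2-fold. The locus at chr9:78023097-78023440 had 314714 FPKM in the newborn and 291528 at E17.5, and that at chr4:43505656-43505931 had 76837 and 100349 FPKM. These 2 intervals, both under 500 bases wide, held 40.2% of all FPKM in the newborn library and 38.9% in the E17.5 library. The locus at chr5:122543065-122588071 had 26861 FPKM in the newborn and 17843 at E17.5, and the short one at chr14:51427121-51427446 had 8370 and 11782 FPKM. The remaining locus, at chr7:110961035-110976756, was 6.70-fold lower in the newborn, at 1516 FPKM against 10157 at E17.5.

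Among the loci whose mean was at least 1000 FPKM, 10 were called. These were singled out after their values were seen. Beside the mitochondrial locus, 3 were higher in the newborn, and all 3 share their interval with another locus. There a call may concern how fragments were divided among the loci. The same applies to chr11:32183671-32197310, chr4:147374209-147433660 and chr11:104411976-104448533 among the lower ones. The locus at chr4:129957728-130037190 had 6562 FPKM in the newborn and 1843 at E17.5, a 3.56-fold difference. The locus at chr15:76827795-76887537 had 4343 FPKM in the newborn and 1407 at E17.5 (3.09-fold), and that at chr10:52900807-53099657 had 1535 and 646 FPKM (2.37-fold). All 3 had been lower still at E10.5 and E14.5. In the adult, chr15:76827795-76887537 stood at 15606 FPKM and chr10:52900807-53099657 at 3107 FPKM, while chr4:129957728-130037190 was level with the newborn at 6561 FPKM.

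The other 6 abundant called loci were lower in the newborn. Beside chr7:110961035-110976756, the locus at chr11:32183671-32197310 had 877 FPKM in the newborn and 5260 at E17.5, a value 6.00-fold higher at E17.5. These 2 loci shared their course over all stages after E10.5. Across E14.5, E17.5, newborn and adult the locus on chromosome 7 had 9521, 10157, 1516 and 4934 FPKM. The locus on chromosome 11 had 5002, 5260, 877 and 3093 FPKM. The newborn library thus held the lowest value of both after E10.5.

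On chromosome 4, the locus at chr4:147374209-147433660 had 758 FPKM in the newborn and 4419 at E17.5, which is 5.83-fold higher at E17.5. Its neighbour at chr4:147359272-147367936 had 90.9 FPKM in the newborn and 945 at E17.5. Both had their highest value of the 5 stages at E17.5, at which they exceeded E14.5 (2306 and 205 FPKM) as well. In the adult they stood at 681 and 138 FPKM.

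The 3 remaining abundant loci had lower values in the adult as well. At chr11:5795539-5798785 there were 994 FPKM in the newborn and 3109 at E17.5 (3.13-fold higher at E17.5). At chr7:149761435-149764019 there were 1126 FPKM in the newborn and 2870 at E17.5, and at chr11:104411976-104448533 there were 389 and 1706 FPKM. The adult library had 291, 16.6 and 199 FPKM at these 3 loci.

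In the next class, with a mean between 100 and 1000 FPKM, 18 of 620 loci were higher in the newborn (2.90%) and 15 lower (2.42%). These shares were near those of all compared loci, 2.78% and 2.68%. The higher ones had differences between 1.03 and 5.32 and a median of 1.33 on the log2(FPKM + 1) scale. The lower ones had differences between -9.89 and -1.01 and a median of -1.57. Several higher loci had a larger value at each stage than at the one before. Across E10.5, E14.5, E17.5, newborn and adult, chr7:29610159-29626722 had 66.6, 124, 172, 634 and 1752 FPKM. At chr8:15041446-15133541 there were 0.542, 23.1, 92.0, 325 and 485 FPKM in the same order of stages. At chr5:17277912-17394982 there were 20.2, 76.3, 150, 366 and 683 FPKM. These examples, and those of the next paragraph, were chosen after their values were seen.

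Of the loci lower in the newborn in that class, some were high at E17.5 and others had been higher in the early embryo. Across the same 5 stages chr9:53698057-53701656 had 10.7, 130, 281, 89.2 and 83.0 FPKM. At chr6:30683505-30846760 the values were 691, 348, 329, 151 and 7.50 FPKM in the same order of stages. At chr2:156600244-156608293 they were 887, 690, 929, 344 and 51.9 FPKM. All 3 had less in the newborn than at E17.5 and less again in the adult.

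The loci with the largest differences were ranked among those with at least 10 FPKM in either stage, with 1 locus taken per group of overlapping intervals, the one with the highest mean FPKM. Of 5697 such groups 126 were higher in the newborn and 144 lower. The 15 largest differences in the higher direction ran between 2.10 and 5.32 on the log2(FPKM + 1) scale. The sizes of the 15 largest in the lower direction ran between 3.54 and 9.89. In the lower direction 9 of the 15 loci were listed at exactly 0 in the newborn, while none of the 15 higher loci was listed at 0 at E17.5 (0 of 15). Taking the strongest locus of each group left out 3 loci with a difference beyond the smallest of the 15 in the higher direction, of which 2 were listed at 0 at E17.5, and 1 in the lower direction. The 2 at 0, with differences of 4.03 and 3.78, and the lower one, at -4.01, are described with the shared intervals at chr14:55555306-55626715, chr11:119775123-119782163 and chr12:8320265-8350630.

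**Figure D4:**
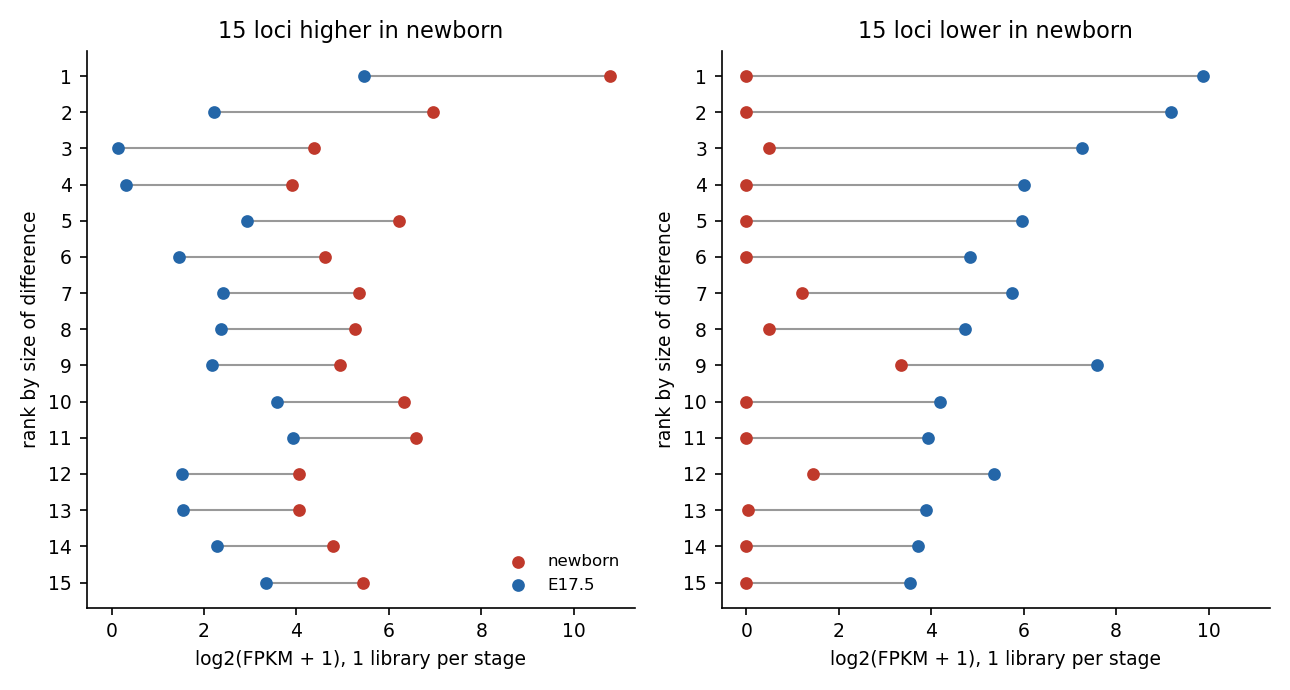
The 15 loci with the largest positive (left) and largest negative (right) newborn minus E17.5 difference among loci with at least 10 FPKM in either stage, with the strongest locus taken per group of overlapping intervals, ranked from the largest. Red points are the newborn library and blue points the E17.5 library, as log2(FPKM + 1), and 9 loci on the right sit at 0 in the newborn.

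The largest higher value belonged to the locus of transcript uc008akz.1 at chr17:12875271-13074521, with 1764 FPKM in the newborn and 43.1 at E17.5, a 40.9-fold ratio. It had 3822 FPKM at E10.5, 52.2 at E14.5 and 9.42 in the adult, so it was high at E10.5 and in the newborn and far lower at the other stages. Another locus listed over the same interval had 181 FPKM in the newborn and 273 at E17.5, so that the loci of that interval did not move together. The locus of transcript uc008qpr.1 at chr3:98084357-98114655 had 122 FPKM in the newborn and 3.68 at E17.5, a 33.2-fold ratio. It stood between 3.03 and 4.77 FPKM at the earlier stages and at 15.0 FPKM in the adult, and thus had its highest value of the 5 stages in the newborn.

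The other 13 loci of the higher direction differed in whether they stayed high in the adult. In 4 of the 15 the adult value exceeded the newborn one, and in 10 of the 15 the newborn value was the highest of all 5 stages. Those with the larger adult value were the following. At chr7:107520742-107634941 there were 19.9 FPKM in the newborn and 0.0957 at E17.5, and 20.1 in the adult. At chr13:62938244-62989596 there were 14.0 FPKM in the newborn and 0.238 at E17.5, and 43.5 in the adult. Both loci were under 0.25 FPKM at every stage before birth.

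The loci at chr4:141166863-141180192 and chr6:5433096-5461037 were already measurable before birth and climbed through it. Over the stages E10.5, E14.5, E17.5, newborn and adult the first had 0.275, 1.39, 4.199, 37.5 and 234 FPKM. The second had 3.66, 7.90, 10.9, 79.1 and 242 FPKM in the same order of stages. These 4 loci are the ones among the 15 whose level in the adult was above that in the newborn.

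Other loci of the higher direction had a newborn value well above those of both neighbouring stages. At chr17:33911844-33918451 there were 73.1 FPKM in the newborn and 6.62 at E17.5, with 18.3 FPKM in the adult. At chr19:44407815-44424732 there were 39.6 FPKM in the newborn and 4.34 at E17.5, with 7.51 FPKM in the adult. At chr18:20823913-20832820 there were 23.6 FPKM in the newborn and 1.75 at E17.5, with 0.168 FPKM in the adult. The newborn was the highest of the 5 stages at all 3. At chr8:125935463-125945910 there were 30.0 FPKM in the newborn and 3.52 at E17.5, with 0.869 FPKM in the adult, and at chr11:31900458-31959202 there were 15.5 FPKM in the newborn and 1.88 at E17.5, with 0.181 FPKM in the adult.

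At chr2:181041163-181049205 there were 15.6 FPKM in the newborn and 1.94 at E17.5, with 0.228 FPKM in the adult. At chr10:57504728-57508256, the smallest difference of the 15, there were 42.8 FPKM in the newborn and 9.21 at E17.5, with 0.131 FPKM in the adult. Both loci were near 0 in the adult. The locus without an identifier at chr16:90342375-90342565, an interval of 190 bases, had 94.9 FPKM in the newborn and 14.1 at E17.5 but also 56.7 FPKM at E14.5.

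Among the lower loci the largest difference was that of transcript uc008eum.1 at chr18:43923980-43927053, listed at 0 in the newborn against 947 FPKM at E17.5. It had 0.394 FPKM at E10.5, 46.7 at E14.5 and 0 in the adult, so its high value belonged to the late fetal library. The locus of transcript uc008kfm.1 at chr2:76541033-76820604, an interval of 279571 bases, was listed at 0 in the newborn and in the adult. Before birth it had 401 FPKM at E10.5, 523 at E14.5 and 583 at E17.5. A 0 beside such levels can be a failed estimate in a table without counts, so no fold is given for a locus listed at 0.

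A switch to 0 at high levels was rare but not confined to these loci. Over all loci outside chromosomes X and Y, 3 were listed at 0 in at least 1 of the 5 libraries while reaching 500 FPKM in another. The third was at chr14:55555306-55626715, which held 1951, 3093, 4614 and 3851 FPKM in the 4 libraries up to the newborn and a listed 0 in the adult. Among the compared loci the newborn listed 59 at 0, and the E17.5 library 44. Where the other stage had at least 10 FPKM, the counts were 9 in the newborn and 2 at E17.5.

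Several lower loci had their signal at E17.5 and almost none at any other stage. At chr11:49477111-49478620 there were 0.410 FPKM in the newborn and 154 at E17.5, and at most 0.820 FPKM at the other stages. At chr6:78416261-78418868 the newborn was listed at 0, E17.5 had 61.2 FPKM, and the other stages had at most 0.842. By a rule chosen after values had been seen, at least 10 FPKM at 1 stage and under 1 FPKM at the 4 others, there were 7 such loci at each of the 3 embryonic stages, 1 in the newborn and 15 in the adult. Of the 7 at E17.5, 3 carried no identifier and 2 were narrower than 500 bases. The newborn and E17.5 libraries thus held few loci of their own, and 7 of those 8 were at E17.5.

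Other lower loci returned in part in the adult. At chr16:17233679-17430919 there were 9.21 FPKM in the newborn and 191 at E17.5, with 92.7 FPKM in the adult. At chr11:120590822-120593309 there were 1.29 FPKM in the newborn and 53.0 at E17.5, with 28.3 FPKM in the adult. At chr15:74562681-74564743 there were 0.411 FPKM in the newborn and 25.7 at E17.5, with 3.82 FPKM in the adult. In these 3 loci the newborn value lay below both neighbouring stages. In 6 of the 15 the adult value was above that of the newborn. They included loci near 0 in the adult: chr11:49477111-49478620 (0.820 FPKM), chr2:164388215-164394006 (0.146) and chr11:99993078-99997172 (0.182). In all 15 the E17.5 value was the highest of the 5 stages. The ranking fixes part of that count, since the newborn could not be the highest.

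Lower in the newborn without a return were chr7:19740101-19751476, with 1.72 FPKM in the newborn and 39.8 at E17.5, with 0.314 FPKM in the adult, and chr5:90889926-90905626, with 0.0295 FPKM in the newborn and 13.8 at E17.5, with 0 FPKM in the adult. Listed at 0 in the newborn were the loci at chr2:164388215-164394006, chr11:99993078-99997172 and chr12:36719511-36730668, which had 63.3, 12.0 and 10.6 FPKM at E17.5. So were 3 loci without an identifier, at chr4:11328214-11328381 with 27.5 FPKM at E17.5, at chr2:8963203-8963398 with 17.3 FPKM and at chr19:33484702-33860199 with 14.3 FPKM. These last 3 were listed at 0 at every stage but E17.5.

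Of the 13084 compared loci, 5442 share their interval with another locus, and there a call may concern how the authors' quantification divided fragments among the loci. Of these, 141 were higher in the newborn (2.59%) and 97 lower (1.78%), against 2.78% and 2.68% of all compared loci. In 2 intervals 1 locus was called higher and another lower. At chr12:8320265-8350630 one locus had 26.6 FPKM in the newborn and 3.89 at E17.5, while the other had 0.00685 FPKM in the newborn and 15.3 at E17.5. At the other stages the first had between 19.4 and 25.4 FPKM and the second was listed at 0, so E17.5 was the only library of the 5 in which the second held more than the first.

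The other interval was chr13:21925613-22128136, where one locus had 12.0 FPKM in the newborn and 4.72 at E17.5 and another had 3.80 and 8.96 FPKM. The strongest locus of that interval was not called, at 28.8 FPKM in the newborn and 41.0 at E17.5. A newborn value beside a listed 0 at E17.5 was also seen in shared intervals. At chr14:55555306-55626715, which lists 6 loci, one had 15.3 FPKM in the newborn and 0 at E17.5, beside the locus at 3851 and 4614 FPKM. At chr11:119775123-119782163 one had 12.7 FPKM in the newborn and 0 at E17.5, while its partner had 34.2 and 30.6 FPKM.

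With overlapping intervals counted once, 42 of 304 higher groups (13.8%) and 32 of 302 lower groups (10.6%) had a neighbouring compared group called in the same direction. Of all 10650 groups, whatever their own call, 5.61% had a neighbour called higher and 5.53% a neighbour called lower. Most called groups thus had no such neighbour, although the share with one was above that of all groups, a difference that was not tested. The longest runs held 3 groups, and there were 4 in each direction. In the higher direction a run on chromosome 3 covered chr3:96329099-96378697. Its loci had 31.4, 345 and 1.09 FPKM in the newborn, and 13.1, 154 and 0.0310 FPKM at E17.5. All 3 were highest in the adult, at 124, 900 and 4.26 FPKM.

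A run on chromosome 12, at chr12:16143267-16653910, had 4.77, 1.21 and 10.5 FPKM in the newborn, and 0.416, 0 and 4.72 FPKM at E17.5. The run at chr16:90340419-90349887 had 6.63, 94.9 and 237 FPKM in the newborn, and 1.44, 14.1 and 87.2 FPKM at E17.5. The run at chr17:10382501-10392378 lay within 9.88 kb and had 2.74, 8.89 and 21.4 FPKM in the newborn, and 0.648, 3.88 and 8.62 FPKM at E17.5. In these 2 runs, on chromosomes 16 and 17, the members lay close beside each other and all had more than 2-fold the E17.5 value.

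In the lower direction a run at chr11:32105414-32197310 included the locus at chr11:32183671-32197310. Its loci had 7.72, 1.17 and 877 FPKM in the newborn, and 21.9, 3.50 and 5260 FPKM at E17.5. The middle locus had been at 4153 FPKM at E10.5 and 30.4 FPKM at E14.5, an early signal that was nearly gone before birth. On the same chromosome the run at chr11:99993078-100068824 had 0, 4.51 and 0.655 FPKM in the newborn, and 12.0, 34.2 and 3.16 FPKM at E17.5.

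The run at chr15:101153318-101834773 had 0.856, 2.49 and 2.49 FPKM in the newborn, and 3.14, 10.9 and 20.2 FPKM at E17.5. The 3 loci at chr3:82811817-82853712 were listed at 0 in the newborn and had 1.25, 1.88 and 1.62 FPKM at E17.5. They were listed at 0 at E14.5 and in the adult as well, and were under 0.6 FPKM at E10.5.

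The adult and E14.5 libraries took no part in the comparison and show the same loci over a wider span. Of the loci compared across birth, 12485 also had at least 1 FPKM in one of these 2 libraries, and of them 15.1% were at least 2-fold higher in the adult than at E14.5, 14.6% were lower and 29.6% were called in either direction. Of the 277 loci called higher in the newborn that could be compared, 173 (62.5%) were higher in the adult than at E14.5 and 26 (9.39%) were lower. Of the 272 called lower in the newborn, 25 (9.19%) were higher and 164 (60.3%) lower. The medians of adult minus E14.5 were 1.73 and -1.31, and that of all 12485 loci was -0.02.

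The same split was seen at both levels. With a mean of at least 10 FPKM across birth, 81 of 118 higher loci were higher in the adult than at E14.5 and 12 lower, and 76 of 122 lower loci were lower and 8 higher. Under 10 FPKM these counts were 92 and 14 of 159, and 88 and 17 of 150. Counted by any difference and not by 2-fold, 16 of the 18 higher loci with a mean between 100 and 1000 FPKM had more in the adult than at E14.5. Of the 15 lower ones 14 had less. The same count over all 620 loci of that class is not given here. A minority of loci thus went against the wider span, among them chr17:12875271-13074521, with 9.42 FPKM in the adult and 52.2 at E14.5.

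**Figure D5:**
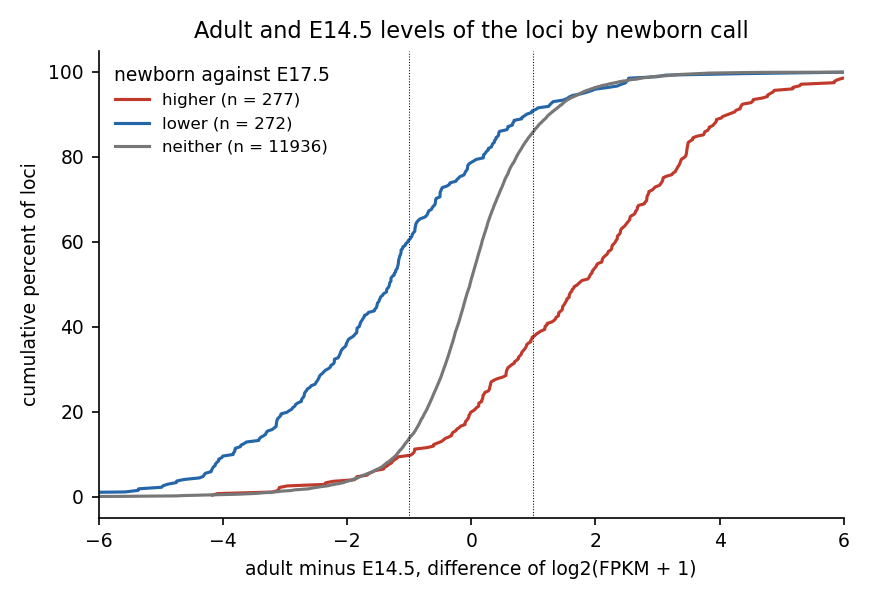
Cumulative percent of loci (vertical axis) by their adult minus E14.5 difference of log2(FPKM + 1), for loci called higher (red), lower (blue) or neither (grey) in the newborn against E17.5. Dotted lines mark 2-fold. The red curve lies to the right and the blue curve to the left of the grey one, with medians of 1.73 and -1.31.

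By the stage of its highest value, a locus called higher in the newborn peaked at E10.5 in 11 of 364 cases, at E14.5 in 4, in the newborn in 198 (54.4%) and in the adult in 151 (41.5%). A locus called lower peaked at E10.5 in 93 of 350 cases (26.6%), at E14.5 in 30, at E17.5 in 194 (55.4%) and in the adult in 33. The calls fix part of this count, since a locus called higher cannot peak at E17.5. Of the 12370 loci in neither class 12.1% peaked in the newborn and 11.3% at E17.5.

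The relative depth of the libraries is known only roughly, and they differed in another measure that moves with the stage. FPKM tables do not state depth. Of 398 loci above 0 and under 0.05 FPKM in both libraries, 50.3% had a newborn to E17.5 ratio within 0.05 log2 units of 0.999. That centre was sought only among ratios close to equality, so its nearness to 1 was set by the search and does not measure depth. Of all loci, 11937 were listed at 0 in the newborn and 12570 at E17.5. The FPKM of all loci summed to 974589 in the newborn and to 1007612 at E17.5. The 4 loci of chromosome Y that reached 1 FPKM at any stage, a chromosome that only males carry, summed to 0.294 FPKM in the newborn and to 56.4 at E17.5. The same sum was 0.0302 FPKM in the adult and 25.3 at E14.5, so both the step across birth and the span of adult against E14.5 set a library without appreciable chromosome Y signal against one with it. The part of the animals' sex in the differences of autosomal loci was not tested, and sex cannot be told apart from stage with 1 library each.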

How the data were processed

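Hearts of C57BL/6 mice were frozen and their RNA was extracted with Trizol, per the labels' protocols. That protocol goes on to describe small RNA libraries only, and the preparation and strandedness of the long RNA libraries were not given in the sources used here. Values deposited by the authors for the long RNA are FPKM per locus, with the unit per the file headers. The submitters' processing notes name the build mm9 and HISAT, HISAT2, Bowtie, Bowtie2 and RSEM, without roles or versions. The small RNA table was not used.

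Samples were grouped by their titles. Values of log2(FPKM + 1) were subtracted, newborn minus E17.5, in Python 3.11.15 with pandas 2.3.3, for loci outside chromosomes X and Y with at least 1 FPKM in either library, and called at a difference of 1. With 1 library per stage no test was run and no p-value is given. The code was checked on simulated data with planted changes, all made large enough to pass the limit. That check does not measure how reliable the calls in these data are. Loci are named by rule: the 15 largest differences per direction at 10 FPKM or more, 1 per group of overlapping intervals (the one with the highest mean FPKM), and the 5 most abundant nuclear loci. Other loci were picked with their values in view. The members, lists and rules were chosen with earlier results of these data known. Gene lists and cell type markers set down for the study were not analysed here, since 0 identifiers matched a name. Alternatives were other pseudocounts, filters, limits and scalings and the removal of locus classes.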

Additional observations from a re-analysis of the deposited data

Results flagged for a closer look

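Chromosome Y lies outside the loci compared across birth, and it showed a signal at E17.5 that the newborn lacked. Its 4 loci with at least 1 FPKM at any stage summed to 0.294 FPKM in the newborn and 56.4 FPKM at E17.5. In the newborn each lay between 0.0650 and 0.0840 FPKM, and at E17.5 between 7.93 and 27.8 FPKM. Across E10.5, E14.5, E17.5, newborn and adult the sums were 68.1, 25.3, 56.4, 0.294 and 0.0302 FPKM. Of 421 compared loci on chromosome X, 13 were at least 2-fold higher in the newborn and 13 lower. Of the 13084 loci compared outside chromosomes X and Y, 364 (2.78%) were higher and 350 (2.68%) lower, which are similar shares.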

How the results depend on the processing

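No paired analysis was possible because each stage has 1 library, and no replicate could be left out. The count of 364 loci higher and 350 lower in the newborn rests on the pseudocount, the filter and the size limit. It was 735 higher and 647 lower with a pseudocount of 0.1, 105 and 113 with a pseudocount of 5, 147 and 160 with a filter of 10 FPKM, and 36 and 56 with a 4-fold limit. Without loci that share an interval 223 were higher and 253 lower. Leaving out the filter could not change the counts, since 2 values under 1 FPKM cannot differ by 1 on the log2(FPKM + 1) scale. Both counts stayed within 1.5 times under median-ratio scaling (387 and 330). They also did with the mitochondrial loci left out and both libraries scaled to the same total (407 and 319). The same held without loci lacking an identifier (292 and 326) and without loci listed at 0 (320 and 291, added after seeing the data).

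The median of all loci, -0.03, was -0.017 with a pseudocount of 5, -0.0397 with a filter of 10 FPKM, -0.0399 without shared intervals and -0.035 without loci lacking an identifier. It turned positive without a filter (0.0069) and under median-ratio scaling (0.0072). It was also positive with the mitochondrial loci left out and both libraries scaled to the same total (0.025). Since that setting also changes the scale, it does not show the part of the mitochondrial loci alone. The ranked 15 loci in each direction, which were picked for their large differences, kept their call wherever they were compared. Without loci listed at 0, only 6 of the 15 lower ones remained to compare. Without shared intervals 10 higher and 13 lower ones remained. The mitochondrial locus called higher was no longer past a 4-fold limit. FPKM values state no depth, and the ratio of depths was sought only near equality, so no counting interval is given.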
